A study of Homo sapiens with 6 samples.

Results

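The ETS family transcription factors were examined in Huh7-R cells treated with fostamatinib or with its vehicle. The 10 members, ETS1, ETS2, ETV1, ETV4, ETV5, ETV6, ELK1, ELK3, ELF3 and ERF, were taken by gene symbol from the 16305 genes analysed, and 10 of 10 were present. They were selected on family membership with their log2 differences between fostamatinib and DMSO in these same samples known, so the differences are given as a description, with no p-value; calls and 95% intervals from the fit over all genes are quoted for them in the same sense only. The cells are Huh7-R (Huh7SR in the sample labels), a pool that was grown out of the hepatocellular carcinoma line Huh7 under long exposure to sorafenib, a kinase inhibitor used against this cancer. Fostamatinib is an inhibitor of the kinase SYK, and DMSO is the solvent. The paper did not detect SYK protein in Huh7 cells. Its blots, at a higher dose and a shorter time, showed less phosphorylated ERK, AKT, STAT3, EGFR and JNK after the drug. Which target lies behind the differences below was not tested. RNA was sequenced from 3 DMSO and 3 fostamatinib samples after 24 h, and the labels give 2 uM for both groups, DMSO included. Both groups therefore share the resistant background, a single derived pool, and no parental Huh7 sample was analysed here.

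ETS factors bind DNA through the ETS domain, a winged helix-turn-helix fold that reads a GGA core. Many of them are end points of the RAS/ERK pathway: ERK phosphorylates ETS1, ETS2 and the ELK factors, moves the repressor ERF out of the nucleus, and relieves the repressor capicua (CIC) from the genes for ETV1, ETV4 and ETV5. In liver cancer, ETS1 is best known for its link to invasion.

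Depth was 13303451 to 15272737 reads per sample over the filtered genes. The deposited log2 values correlated at 0.988 or more within a group and at 0.972 or less between the groups. All 6 hepatocyte markers of the list were present, with ALB at 8568 to 11313 reads and AFP at 25715 to 34288 reads per sample. The summed level of the hepatocyte markers was 2683 to 2861 CPM (counts scaled to library size) in DMSO and 3459 to 3591 CPM after fostamatinib, sums in which AFP and ALB hold most of the reads. All 6 were called higher, beside 23.3% of all genes. Their log2 differences ran from 0.29 for ALB to 1.02 for HNF4A and 3.19 for APOA1. APOA1 had 20 to 23 reads in DMSO and 185 to 194 after fostamatinib. Of the markers of other cell types, 2 of 6 for blood, 1 of 4 for endothelium and 4 of 4 for fibroblasts were analysed; their summed levels were 9.76 to 11.1, 6.10 to 6.93 and 149 to 154 CPM in DMSO, and 9.60 to 11.6, 8.72 to 9.89 and 193 to 200 CPM after fostamatinib. COL1A2 holds most of the fibroblast reads. The endothelial gene PECAM1 (log2 0.51) and the fibroblast genes COL1A2 (0.37) and PDGFRB (0.95) were also called higher. The other analysed markers of these cell types were not called. The part of these shifts in the results below was not tested. In RNA from whole cultures, fewer cells that express a gene and less RNA per cell cannot be told apart.

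ETV5, ETV1 and ETV4, the PEA3 group of activators, had the largest differences among the members. ETV5 (ENSG00000244405, chr3:185764103-185828107, minus strand, GRCh37) had 223, 219 and 223 reads in DMSO and 13, 17 and 15 after fostamatinib. On the log2 CPM scale this was 3.93 ± 0.088 against 0.16 ± 0.17 (SD, n = 3), a difference of -3.76 (SE 0.17), or 13.6-fold lower. All fostamatinib samples lay far below all DMSO samples, and ETV5 ranked 4 of 16305 genes from the largest fall.

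ETV1 (ENSG00000006468, chr7:13930854-14031050, minus strand) had 155, 137 and 168 reads in DMSO and 20, 19 and 17 after fostamatinib, a log2 difference of -2.91 (SE 0.18), or 7.54-fold lower. Its 3 treated samples were close together, and it ranked 28 from the largest fall. ETV4 (ENSG00000175832, chr17:41605212-41656988, minus strand) had 76, 83 and 67 reads in DMSO and 6, 20 and 6 after fostamatinib, a log2 difference of -2.90 (SE 0.30) and rank 29. The SD of its log2 CPM was 0.16 in DMSO and 0.91 after fostamatinib. This SE is moderated over all genes, and in the fit without a trend it was 0.47. The groups did not overlap, but Fostamatinib replicate 2 stood apart from the other treated samples: its 20 reads have an exact Poisson 95% interval of 12.2 to 30.9, and 6 reads have an interval of 2.2 to 13.1, counting error only. Without this sample the ETV4 difference was -3.42.

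**Figure D1:**
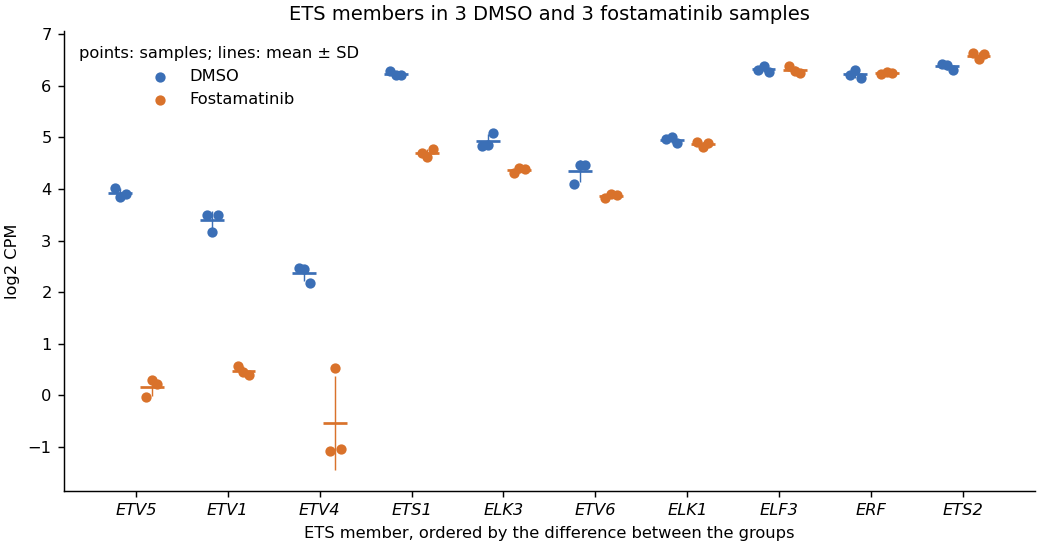
Log2 CPM of the 10 members in each sample, with points for samples and lines for the mean ± SD of 3 DMSO (blue) and 3 fostamatinib (orange) samples. ETV5, ETV1, ETV4 and ETS1 lie clearly lower after fostamatinib, and the single high ETV4 point is Fostamatinib replicate 2 with 20 reads.

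The windows around RefSeq start sites (GRCh38.p14, 250 bases before to 50 after the start) were available for 7 of the 10 members; those of ETV4, ETV5 and ETS1 were not used here. They were searched on both strands for TGAATGA and TGAATGG, the core of the CIC site, CCGGAAG (ETS site), TGANTCA (AP-1 site) and the CArG box bound by SRF. Both CIC cores begin with the same letters, and none of the motifs contains another. Of 35116 windows, 4.01% held TGAATGA, 3.20% TGAATGG, 6.95% either core, 10.3% CCGGAAG, 7.71% TGANTCA and 1.29% a CArG box. Among the members, 1 of the 6 ETV1 windows held TGAATGG, starting 125 bases before the start, and no window of the other members with windows held any of these motifs, which says nothing of sites elsewhere. Of the 8 other CIC-repressed genes with a window, DUSP6 and MAFF held TGAATGA, 133 and 27 bases before the start, and GPR3, whose RNA was not analysed here, held TGAATGG. No core was found in the windows of SPRY2, SPRY4, SPRED1 and SPRED2, whose RNA was lower after fostamatinib, or of SHC3. Of 15 other ETS genes with a window, only SPDEF, whose RNA was not analysed here, held a core. These counts are per gene, with 1 or more windows each, and the shares above are per window. The 250 bases before the start are printed for ETV1, the member with a match, and for DUSP6 and MAFF, whose RNA was also lower after fostamatinib; capitals mark the core. They lie at chr7:13991426-13991675 (minus strand), chr12:89352502-89352751 (minus strand) and chr22:38201744-38201993 (plus strand).
ETV1: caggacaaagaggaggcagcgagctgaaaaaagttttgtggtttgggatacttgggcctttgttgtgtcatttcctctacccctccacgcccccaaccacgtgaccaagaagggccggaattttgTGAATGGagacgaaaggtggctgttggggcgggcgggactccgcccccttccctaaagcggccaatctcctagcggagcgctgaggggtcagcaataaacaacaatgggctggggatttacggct
DUSP6: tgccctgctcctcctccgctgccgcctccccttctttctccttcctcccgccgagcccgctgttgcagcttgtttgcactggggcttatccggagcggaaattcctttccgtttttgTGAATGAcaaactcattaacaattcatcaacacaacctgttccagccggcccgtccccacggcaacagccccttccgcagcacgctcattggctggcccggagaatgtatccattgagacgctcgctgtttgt
MAFF: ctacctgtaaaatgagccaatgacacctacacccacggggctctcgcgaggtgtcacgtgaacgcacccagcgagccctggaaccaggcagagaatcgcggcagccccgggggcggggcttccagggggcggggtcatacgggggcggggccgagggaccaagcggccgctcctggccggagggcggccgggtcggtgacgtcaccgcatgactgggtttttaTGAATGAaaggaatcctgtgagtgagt
The ETV1 and DUSP6 windows share an unbroken run of 11 bases across the core, TTTTGTGAATG, a comparison made after the windows had been seen. The letters TGAATG in it were fixed by the search for the core, so only TTTTG before them is a further match. How often this flank stands beside the core in other windows was not tested. A match of letters is a description and not a site shown to be bound.

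ETS1, an activator linked to invasion, had 1070, 1127 and 1104 reads in DMSO and 356, 348 and 360 after fostamatinib (ENSG00000134954, chr11:128328656-128457453, minus strand). Its log2 CPM was 6.23 ± 0.040 against 4.69 ± 0.077 (SD, n = 3), a difference of -1.54 (SE 0.061), or 2.91-fold lower. The groups were far apart, with little spread within each. ETS2, its closest relative (ENSG00000157557, chr21:40177107-40196879, plus strand), had 1187, 1285 and 1168 reads in DMSO and 1367, 1297 and 1292 after fostamatinib. Its log2 difference was 0.21 (SE 0.051), and it was the sole member called higher, with groups that lay close together but did not overlap. The paper lists ETS1 among genes higher in Huh7-R cells and lower after fostamatinib, both in Huh7-R and in HepG2. Its Huh7-R data on the drug are those described here, so the fall of ETS1 is not a separate observation.

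The ELK factors act with SRF at serum response elements, ELK3 as a repressor until it is phosphorylated. ELK3 (chr12:96588153-96663602, plus strand) had 394, 440 and 505 reads in DMSO and 272, 300 and 276 after fostamatinib, a log2 difference of -0.56 (SE 0.078). Its treated samples were all below its DMSO samples. ELK1 (chrX:47494920-47510003, minus strand) had 432, 491 and 438 reads in DMSO and 413, 401 and 391 after fostamatinib, a log2 difference of -0.08 with a 95% interval of -0.23 to 0.06. Its groups overlapped on the log2 CPM scale.

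ETV6 and ERF are repressors. ETV6 (chr12:11802608-12048311, plus strand), which carries a pointed domain for self-association, had 236, 338 and 329 reads in DMSO and 195, 214 and 194 after fostamatinib, a log2 difference of -0.48 (SE 0.095). DMSO replicate 1 was the lowest of its group but still above every treated sample. ERF (chr19:42751721-42759280, minus strand) had 1024, 1200 and 1061 reads in DMSO and 1029, 1095 and 999 after fostamatinib, a log2 difference of 0.02 with a 95% interval of -0.09 to 0.12. ELF3 (chr1:201977073-201986311, plus strand), an epithelial factor, had 1089, 1273 and 1148 reads in DMSO and 1154, 1114 and 999 after fostamatinib, a log2 difference of -0.01 with a 95% interval of -0.12 to 0.09. The groups of both genes overlapped.

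Across all genes, limma with Benjamini-Hochberg adjustment called 47.8% at an adjusted p under 0.05, 23.3% higher and 24.5% lower after fostamatinib. Of the 10 members, 6 were called lower, 1 higher and 3 not called, which is given beside these shares with nothing read from it. The groups did not overlap in the same 7 members, against 54.1% of all genes. ETV5, ETV1, ETV4 and ETS1 were called and lower by more than 1 on the log2 scale, as were 3.29% of all genes. The median log2 difference was -0.52 over the members and 0.0015 over all genes.

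**Figure D2:**
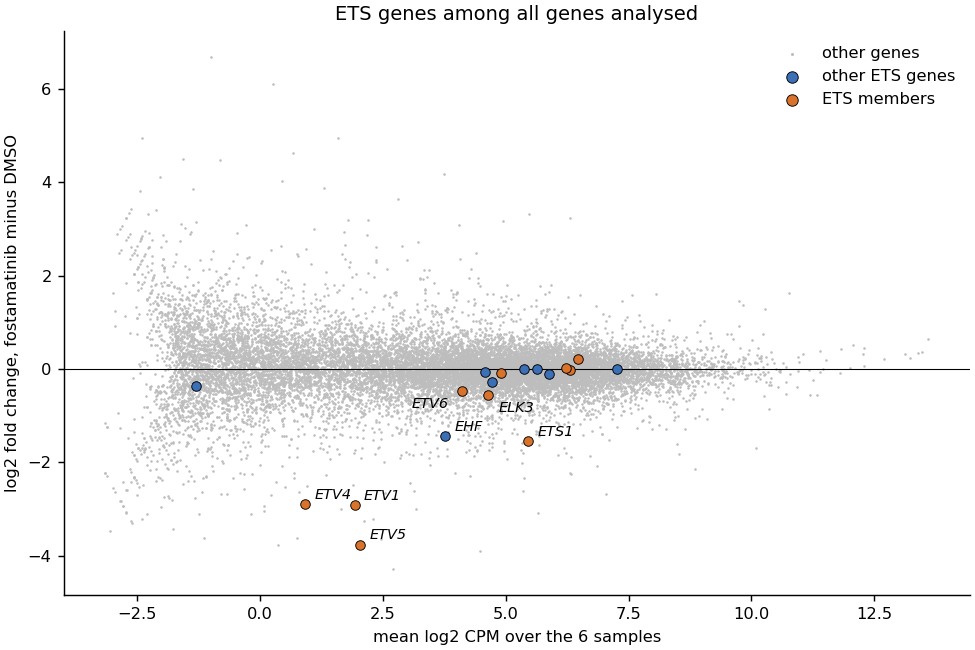
Log2 fold change (fostamatinib minus DMSO) against mean log2 CPM over the 6 samples for 16305 genes (grey), with the 10 members in orange and the 8 other ETS genes in blue. ETV5, ETV1 and ETV4 lie at -3.76, -2.91 and -2.90 near the lower edge, and ETS1 and EHF at -1.54 and -1.44.

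Of 18 ETS genes outside the members, 8 were analysed. Of these, 2 were called, both lower. That is 25%, beside 47.8% of all genes called and 24.5% called lower. EHF, an epithelial factor like ELF3, had 319, 335 and 328 reads in DMSO and 108, 109 and 124 after fostamatinib, and fell by 1.44 on the log2 scale (SE 0.099, adjusted p = 1.62e-14, limma). ELK4, which like ELK1 and ELK3 acts with SRF, had 370, 435 and 465 reads in DMSO and 313, 333 and 340 after fostamatinib, and fell by 0.27 (SE 0.076, adjusted p = 0.0036). Both had treated samples below all DMSO samples, where 54.1% of all genes had groups that did not overlap. ELF1, ELF2, ELF4, ETV3, ETV7 and GABPA were not called, with log2 differences from -0.36 for ETV7, at 3 to 11 reads per sample, to 0.01 for ELF1. ELF4 (log2 -0.12) was called without DMSO replicate 3 and without Fostamatinib replicate 2. The median of these 8 genes was -0.085. ELF5, ERG, ETV2, ETV3L, FEV, FLI1, SPDEF, SPI1, SPIB and SPIC were not analysed here.

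Levels were compared between genes only per length, as RPKM, CPM divided by the length of the merged exons in kilobases. In DMSO, ELF1 led the 18 ETS genes with 34.7 ± 0.56 RPKM (SD, n = 3), followed by ERF with 22.9 ± 1.11 and ETS2 with 16.7 ± 0.79. ELF4, ELF3 and ETS1 followed at 11.8 ± 0.72, 11.1 ± 0.44 and 10.5 ± 0.29, and each of these overlapped its neighbour in range. ELK1 stood at 9.12 ± 0.41, ETV3 at 7.43 ± 0.28, ELK3 at 6.56 ± 0.66, ELF2 at 4.84 ± 0.24, GABPA at 4.26 ± 0.39 and EHF at 3.38 ± 0.100. The lowest levels were those of ETV6 (2.83 ± 0.40), ETV5 (2.63 ± 0.16), ELK4 (2.37 ± 0.18), ETV4 (1.47 ± 0.16), ETV1 (1.10 ± 0.14) and ETV7 (0.21 ± 0.13). The PEA3 group was among these 6 genes before treatment. Of 17 neighbouring pairs in this order, 6 overlapped in range.

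After fostamatinib, ELF1, ERF and ETS2 kept ranks 1 to 3 at 34.9 ± 1.33, 23.1 ± 0.32 and 19.3 ± 0.88 RPKM. ETS1, at 3.61 ± 0.19 RPKM, had rank 6 in DMSO and rank 11 after fostamatinib. ELK3 was at 4.42 ± 0.15, ETV6 at 2.02 ± 0.058, ELF3 at 11.0 ± 0.60 and ELK1 at 8.60 ± 0.29. ETV4 (0.22 ± 0.16), ETV5 (0.19 ± 0.022) and ETV1 (0.14 ± 0.0092) lay with ETV7 (0.14 ± 0.070) at the bottom, and each neighbour among these 4 genes overlapped the next. In all, 7 of 17 neighbouring pairs overlapped. The order depends on the length used: with the longest transcript ETS1 ranked 5 and 9, and with the coding length 4 and 10.

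**Figure D3:**
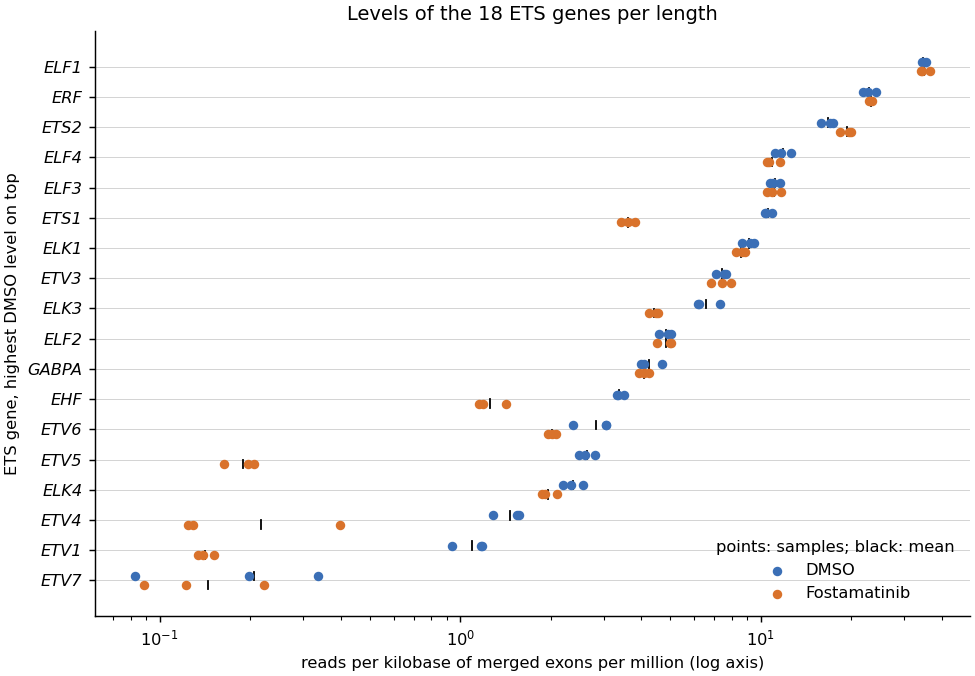
Level of each of the 18 ETS genes in each sample, in RPKM on a log axis, with DMSO in blue, fostamatinib in orange and black ticks for means. ETS1 moves from rank 6 to rank 11, and ETV5, ETV4 and ETV1 from 2.63, 1.47 and 1.10 to the level of ETV7.

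Summed over the 18 genes, the ETS level was 153.9 ± 2.14 RPKM in DMSO and 138.2 ± 1.66 after fostamatinib, with no overlap between the groups. ETV1, ETV4 and ETV5 together made up 3.37% ± 0.21 of the sum in DMSO and 0.397% ± 0.13 after fostamatinib. The share of ETS1 was 6.84% ± 0.22 and then 2.61% ± 0.11, and that of EHF 2.2% ± 0.074 and then 0.906% ± 0.091. Within pairs of close relatives, chosen after the values had been seen, the ratio of ETS1 to ETS2 was 0.632 ± 0.024 in DMSO and 0.187 ± 0.0064 after fostamatinib. The ratio of EHF to ELF3 was 0.305 ± 0.017 and then 0.114 ± 0.018, and that of ELK3 to ELK1 0.722 ± 0.11 and then 0.515 ± 0.033. In these pairs the ratios of the groups did not overlap. The ratio of ELK4 to ELK1, 0.261 ± 0.031 in DMSO and 0.228 ± 0.016 after fostamatinib, overlapped between the groups. The ratio of ETV5 to ETV4 was 1.81 ± 0.21 and then 1.12 ± 0.53, and that of ETV5 to ETV1 2.42 ± 0.23 and then 1.34 ± 0.23, without overlap. Within the PEA3 group the treated ratios rest on 6 to 20 reads per gene and sample. The ETV5 to ETV4 ratios came close, with 1.61 as the lowest in DMSO and 1.52 as the highest after fostamatinib.

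The ETS domains, taken from translated GENCODE transcripts, were compared to show which members are close relatives. Each was cut from the first family signature to the end of the second, 60 to 62 residues, and the identities are of this stretch alone. Those of ELF3, EHF, ETV6 and ETV7 were placed by alignment. ETV1, ETV4 and ETV5 were 95% identical in each pairing, and 39.3% to 68.3% identical to the other analysed ETS genes. ETS1 and ETS2 were 96.7% identical, ELK1 and ELK3 80.3%, and EHF and ELF3 79.0%, against a median of 51.6% over the 153 pairs. The PEA3 group, nearly identical in this stretch, differed in the same direction between the groups. The log2 differences were -1.54 for ETS1 beside 0.21 for ETS2, -1.44 for EHF beside -0.01 for ELF3, and -0.56 for ELK3 beside -0.08 for ELK1. The differences between relatives were not tested.

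**Figure D4:**
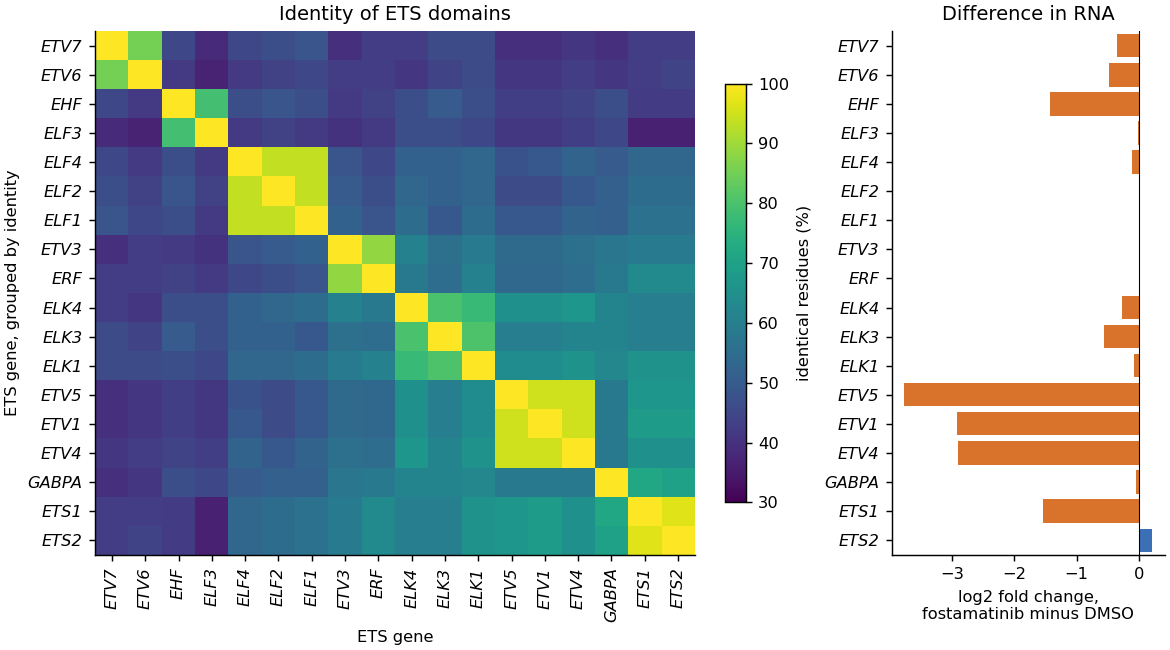
Identity of the compared stretch of the ETS domains (%, colour) between the 18 analysed ETS genes, ordered by similarity, beside the log2 fold change (fostamatinib minus DMSO) of each gene's RNA. The PEA3 block (95%) holds 3 long bars to the left, and the ETS1 and ETS2 block (96.7%) holds bars in opposite directions.

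Genes repressed by CIC were analysed for 8 of 11 listed, as a set that shares this repressor with the PEA3 group. Of these, 7 fell and 1 rose, beside 24.5% and 23.3% of all genes, and the median log2 difference was -1.26. This list and the following ones were chosen with earlier results of these data known, and their counts are descriptions. SPRY4, an inhibitor of receptor signalling to ERK, had 192, 190 and 208 reads in DMSO and 32, 15 and 14 after fostamatinib (log2 -3.26, SE 0.21, adjusted p = 1.47e-15). DUSP6, the phosphatase of ERK in the cytoplasm, had 231, 202 and 220 reads and then 22, 26 and 18 (log2 -3.20, SE 0.16, adjusted p = 2.45e-18). In both genes the treated samples were far below the DMSO samples, as in ETV1, ETV4 and ETV5. CCND1, the cyclin of early G1, followed at -1.40 (SE 0.047, adjusted p = 2.35e-23). MAFF fell by 1.35, SPRED1 by 1.16, SPRED2 by 1.16 and SPRY2 by 0.60 on the log2 scale. DUSP4, a nuclear phosphatase of ERK, went the other way, with 132, 148 and 143 reads in DMSO and 510, 546 and 484 after fostamatinib (log2 1.95, SE 0.081, adjusted p = 1.44e-20). CIC itself was not called, at 976, 1213 and 1053 reads in DMSO and 1098, 1016 and 1082 after fostamatinib (log2 0.07). Whether CIC acts on these genes in these cells, and its part in the differences, was not tested.

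Of the serum response genes, targets of SRF and the ELK factors, 8 of 9 were analysed; 3 fell, 1 rose and 4 were not called, with a median of -0.37. The called share, 50%, was near the 47.8% of all genes. FOS, a subunit of AP-1, fell by 1.44 (SE 0.22, adjusted p = 7.24e-07), from 62, 72 and 50 reads to 21, 22 and 19. MCL1, an inhibitor of apoptosis, fell by 0.76 (adjusted p = 6.10e-18), and JUNB by 0.68 (adjusted p = 1.04e-10). NR4A1, an orphan nuclear receptor, rose by 0.55 (adjusted p = 9.82e-05). EGR1, EGR2, FOSB and IER2 were not called, with log2 differences of -0.13, -0.62, 0.15 and -0.12; IER2 was called without DMSO replicate 3 (adjusted p = 0.033). EGR1, a classical ELK1 target, had 38, 37 and 43 reads in DMSO and 27, 37 and 38 after fostamatinib, with overlapping groups.

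Of the partners and regulators of ETS factors, 20 of 21 were analysed; 5 rose, 6 fell and 9 were not called, and the median was -0.036. The called share, 55%, was near the 47.8% of all genes. Among the 5 rises, SPOP (log2 0.19) lost its call without DMSO replicate 1 and without Fostamatinib replicate 2 (adjusted p = 0.064 in both fits), and 1 further gene was called without DMSO replicate 2 and another without Fostamatinib replicate 2. RUNX1, which binds DNA together with ETS1, fell by 0.77 (SE 0.067, adjusted p = 7.31e-12), from 558, 652 and 617 reads to 330, 339 and 338. GABPB1, the partner subunit of GABPA, fell by 0.47 (adjusted p = 4.51e-06), and SRF by 0.34 (adjusted p = 9.28e-06). MAPK3, which encodes ERK1, rose by 0.60 (SE 0.065, adjusted p = 8.70e-10), from 378, 455 and 418 reads to 595, 614 and 575. MED23, a Mediator subunit used by ELK1, rose by 0.40 (adjusted p = 1.27e-07), and the coactivator EP300 by 0.20 (adjusted p = 3.04e-04).

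Invasion and vessel genes linked to ETS1, ETS2 and ETV4 were analysed for 11 of 19 listed; 9 fell, none rose and MMP14 and PLAU were not called (log2 0.04 and 0.02). The fallen share, 81.8%, stands beside 24.5% of all genes, and the median was -1.20. This share leaves out MMP1, MMP2, MMP3, MMP9, MMP10, MMP13, KDR and ANGPT2, which were on the list but not analysed. FLT1, a receptor for VEGF, fell by 2.51 (SE 0.24, adjusted p = 6.14e-11), from 69, 65 and 67 reads to 10, 12 and 10. SPP1, which encodes osteopontin, fell by 1.82 (SE 0.12, adjusted p = 9.64e-15), from 192, 263 and 223 reads to 59, 59 and 60. CXCR4, a chemokine receptor, fell by 1.67 (SE 0.16, adjusted p = 4.88e-11), from 135, 161 and 127 reads to 44, 34 and 46. ITGB3, at 3 to 17 reads per sample and a log2 difference of -1.25 (adjusted p = 0.017), had a weak call. It was lost with all samples in the fit without a trend, where 8 of the 11 genes were called. Single samples mattered too: the difference was -1.21 without DMSO replicate 2 (adjusted p = 0.053) and -0.81 without Fostamatinib replicate 2 (adjusted p = 0.12).

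Of the epithelial genes, set beside ELF3 and EHF, 10 of 13 were analysed. Of these, 6 rose, 2 fell and 2 were not called, beside 47.8% of all genes called, 23.3% higher and 24.5% lower. The median was 0.18. The rises include KRT19 (log2 0.25) and TGFBR2 (0.19), a TGF-beta receptor gene on the list that is not confined to epithelium. SPINT1, an inhibitor of membrane serine proteases, rose by 1.19 (SE 0.068, adjusted p = 7.45e-17), CLDN7, a tight junction protein, by 0.56 (adjusted p = 0.0010), and CDH1, which encodes E-cadherin, by 0.43 (adjusted p = 9.91e-11). The keratins KRT18 and KRT8 fell by 0.86 and 0.56 (adjusted p = 1.19e-21 and 9.58e-17). CLDN4 and ESRP2 were not called (log2 -0.13 and -0.17). ESRP2, whose groups did not overlap, was close to the threshold (adjusted p = 0.052) and was called in 7 of 14 alternatives, among them the fits without DMSO replicate 2 and without DMSO replicate 3. CLDN7 was at 0.36 without DMSO replicate 3 and lost its call in the fit without a trend (adjusted p = 0.066). EPCAM rose by 0.17 (adjusted p = 0.023), a call lost in the fit without a trend and in 4 of the 6 fits without a sample, where the adjusted p was 0.073 without DMSO replicate 1, 0.055 without DMSO replicate 2, 0.055 without Fostamatinib replicate 2 and 0.18 without Fostamatinib replicate 3.

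**Figure D5:**
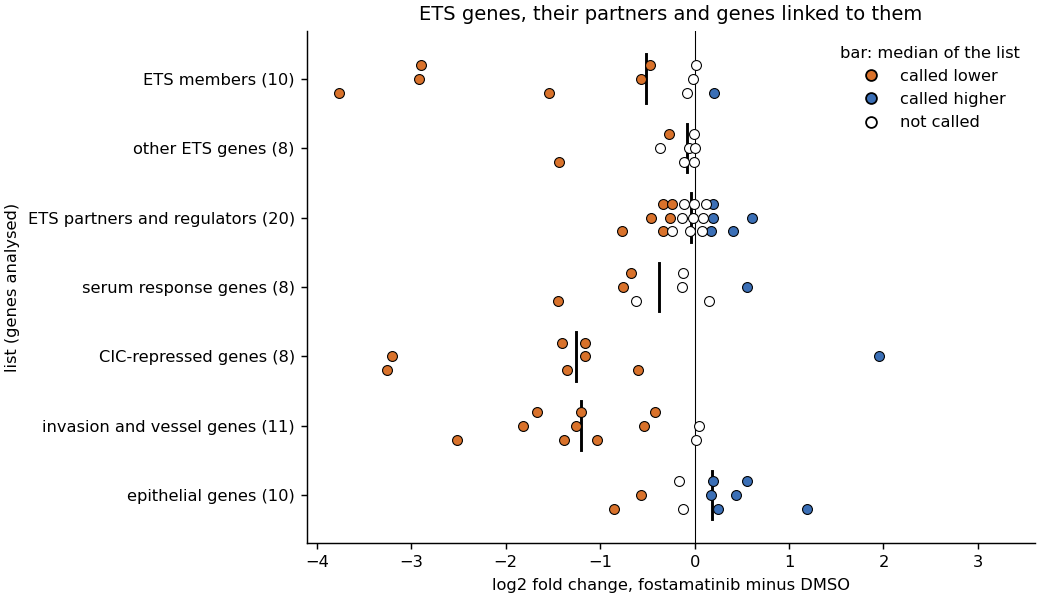
Log2 fold change (fostamatinib minus DMSO) of each analysed gene of 7 lists, with the number of genes in brackets, orange for called lower, blue for called higher, white for not called and a bar at the median. The CIC-repressed and the invasion and vessel genes have medians of -1.26 and -1.20, and DUSP4 stands alone on the right at 1.95.

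The genes whose pattern over the 6 samples was most like that of ETV5 and ETS2, the members with the largest fall and rise, were found by Euclidean distance between log2 values after subtraction of the DMSO mean, over 11371 genes. Nearest to ETV5 was NNMT, nicotinamide N-methyltransferase, at a distance of 0.53, with 1166, 1406 and 1223 reads in DMSO and 84, 93 and 64 after fostamatinib. ASNSP1, a pseudogene of asparagine synthetase whose reads may be shared with that gene, followed at 0.63, and NPPB, the natriuretic peptide gene, at 0.86. Nearest to ETS2 were C12orf56 at 0.028, ARSE at 0.050 and SAP130 at 0.052. Their log2 differences were 0.20 (SE 0.12), 0.21 (SE 0.060) and 0.23 (SE 0.051). These small distances are between profiles that differ little between the groups, and are not comparable with those of ETV5.

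Some ETS genes share sequence with neighbours, and the strand setting of the counting is not given in the sources used here. ELF3 shares 664 exon bases, 9.24% of its merged exons, with ELF3-AS1 on the opposite strand, which had a mean of 95 reads in DMSO and 70.7 after fostamatinib, and 13.2% of its 50-base windows also occur in another gene. GABPA shares 15.8% of its windows, most with the pseudogene GABPAP, and exon bases with ATP5PF on the opposite strand. ETV4 overlaps DHX8 on the opposite strand by 68 exon bases, and ETV5 shares 2.88% of its windows with DGKG. ETS1, ETS2 and ETV1 had no shared windows, so the values of ELF3 and GABPA are the least certain of the family in this respect.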

How the data were processed

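Huh7-R RNA was sequenced from poly(A) libraries of 3 DMSO and 3 fostamatinib samples, and groups and replicate numbers were taken from the sample labels. Per the submitters' processing notes and the methods, the authors aligned reads with HISAT (hg19) and used featureCounts with GENCODE genes for counting. Genes under 5 reads in 2 or more samples of each group were dropped, and TMM scaling was applied. The deposited values are log2 CPM with 0.5 added to each read count; whole reads were recovered from them, with 100% of the values within 0.05 of a whole number. A gene listed 7 times was used once, which left 16305 of 16311 rows. No column was left unused.

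A linear model was fitted to the deposited log2 values of all genes with limma 3.58.1 in R 4.3.3 (lmFit, eBayes with a trend, treatment as the sole term), with Benjamini-Hochberg adjustment and a threshold of 0.05; scripts were tested on simulated data. Figures and tables were made with Python 3.11.15. Fold changes are on the scale of the deposited values and understate those of genes with few reads. Levels per length, coordinates and overlaps were taken from GRCh37, equal to hg19, with GENCODE genes lifted onto it, where 98.7% of identifiers were found. ETS domains were found in 22 of 28 proteins by both family signatures and, as added later, in 6 by alignment. Promoter windows are from RefSeq on GRCh38.p14, used for their sequence alone.

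The members and all gene lists were chosen with earlier results of these data known. Named outside the family were the 3 largest rises and falls among the called genes of each list, genes that a sentence counts, and the 3 genes most like ETV5 and ETS2 averaging 50 or more reads in the higher group; other genes of the lists were named after their values were seen. Some genes of the lists are not reported here by name. The labels do not say that the 3 samples of a group were separate cultures, so the spread between these samples may be technical. The p-values rest on that spread moderated towards a trend over all genes. The median total degrees of freedom were 33.9, against 4 residual ones, so the trend weighs more than a gene's own samples. The smallest p-value that exact permutation allows with 3 samples a group is 0.10. The alternatives were limma-voom on recovered reads, no trend, RLE scaling, library size alone, stricter filters, a pseudocount of 2 reads, the replicate number as a block, leaving out each sample, other gene lengths and, chosen after seeing the data, shares of the summed ETS level.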

Additional observations from a re-analysis of the deposited data

How the results depend on the processing

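The 7 calls among the members, 6 lower and 1 higher, were found under 13 of 14 alternatives; with at least 10 reads in every sample, ETV4 was not among the genes tested and 6 of 9 members were called. Over all genes, 7794 were called, 6958 to 7480 when 1 sample was left out and 6382 to 7977 otherwise. With a replicate block in the model, 7977 genes and 7 members were called; deviations of same-numbered samples correlated at 0.028, -0.019 and 0.013, so the numbers did not pair the samples. The ETV1, ETV4 and ETV5 share of the summed ETS level in DMSO, 3.37% with merged exons, was 3.91% with the longest transcript and 3.80% with the coding length. As shares of the summed ETS level, log2 differences were -1.39 for ETS1, 0.37 for ETS2, -0.41 for ELK3, 0.07 for ELK1, 0.14 for ELF3 and 0.17 for ERF. No named gene changed sign while called. SPOP, ITGB3, CLDN7 and EPCAM lost their call in 11 fits. Depth limits ETV4, ETV1, ETV5 and ETV7, with 3 to 20 reads in treated samples.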
